A study of Arabidopsis lyrata with 3 samples.

Results

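SEPALLATA3 (SEP3) windows of intermediate score in both ChIP libraries of Arabidopsis lyrata are described here. They are the windows of replicate 1 that scored from 2.5 to 4.35 and whose best overlapping window in replicate 2 scored from 1.6 to 2.73. The best window is the overlapping one (at least 1 bp) of highest score. The rule chose 4317 of the 93693 replicate 1 windows (4.61%), and they are called moderate windows below. They were chosen by the scores of both libraries, so their scores, their number and their ranks are given as a description only.

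SEP3 is a MADS-domain transcription factor that acts in floral meristems and in the inner floral organs. In A. thaliana it assembles with other MADS-domain proteins, such as APETALA1, APETALA3, PISTILLATA and AGAMOUS, into complexes that bind paired CArG boxes, short A/T-rich DNA motifs. ChIP-seq lists of such factors usually hold many sites of weak signal, and regulatory DNA of plant genes often lies just outside the transcribed part of the gene.

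Chromatin came from inflorescences of wild-type A. lyrata with floral buds of stage 1 up to 10 or 11, and was precipitated with an antibody raised against a peptide of A. thaliana SEP3. There were 2 SEP3 ChIP libraries, with 1 window list each, and 1 input DNA library, which is not analysed here. Vernalisation took 7 to 10 weeks, and plants then bolted in long days at 18 to 22 °C. The cold was 8 °C with 16 h light and 8 h dark for replicate 1 and input plants. For replicate 2 plants it was 8 °C in the day and 4 °C at night, with 12 h light and 12 h dark. Each cold treatment therefore has 1 ChIP library, and treatment and library cannot be told apart. The labels do not say how many plants entered a library, and inflorescences hold many cell types, so fewer SEP3-bound cells and less SEP3 per cell cannot be told apart.

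The lists differed in size. Replicate 1 held 93693 windows with a median width of 275 bp that covered 39.7 Mb, and replicate 2 held 64504 windows with a median width of 173 bp that covered 15.2 Mb. A score of 2.5 or more was reached by 13.1% of the replicate 1 windows, and a score of 1.6 or more by 17.4% of the replicate 2 windows. The score is the authors' own value for a window, and no source used here says whether both lists share its scale. Read depth is unknown from these lists, and both may rest on the same input control.

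Moderate windows ranked from 2039 to 12255 in the replicate 1 list and from 2093 to 11204 in the replicate 2 list. Their median score was 3.08 in replicate 1, with quartiles of 2.76 and 3.53, and 1.93 in replicate 2, with quartiles of 1.75 and 2.17. Across the 4317 windows, which share both libraries, Spearman's rho between the 2 scores was 0.253, over a range that the rule itself narrowed. The scores took 135 different values in replicate 1 and 70 in replicate 2, so many windows had tied ranks. Together the moderate windows covered 5.42 Mb, or 2.77% of the scaffolds.

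A moderate score in replicate 1 went with different outcomes in replicate 2. Of the 10271 replicate 1 windows in the score band, 4317 (42.0%) had a best partner of moderate score and became members. A weaker partner was found for 4659 (45.4%), a stronger one for 609 (5.93%) and none for 686 (6.68%). Over the whole replicate 1 list, 40.2% of windows overlapped any replicate 2 window. Seen from replicate 2, 4629 of its 9123 windows in the score band (50.7%) had a best partner of moderate score in replicate 1, and 278 (3.05%) had none. The 4317 members used 4297 different replicate 2 windows, with 20 of these shared by 2 members each.

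The windows on either side of the limits differed little in the score concerned. The lowest replicate 1 score inside was 2.5, held by 21 members, and the highest just outside was 2.49, held by 8 windows with a moderate partner. On scaffold 1, the members at 421629 to 422456, 1810450 to 1810957 and 28235223 to 28236349 were the first 3 inside that limit in scaffold order, with replicate 2 scores of 1.62, 2.11 and 1.68. The first 3 outside it lay on scaffold 2 from 18622613 to 18623249 and on scaffold 3 from 11737494 to 11739028 and from 17960555 to 17962033, with replicate 2 scores of 1.68, 1.62 and 2.42.

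Among the partners of replicate 1 windows in the band, no score fell between 1.56 and 1.61. The lowest score inside was 1.61, held by 2 members, on scaffold 3 from 5477753 to 5479220 and on scaffold 8 from 19549687 to 19552117. The next member, on scaffold 1 from 419550 to 421053, had 1.62. The highest score just outside was 1.56, and 534 replicate 1 windows of the band had a best partner of exactly that score. The first of these 534 in scaffold order lay on scaffold 1 from 530413 to 531860, from 590830 to 593612 and from 1933399 to 1934713. At the upper limits, the highest scores inside were 4.35 in replicate 1 (2 members) and 2.73 in replicate 2 (1 member), and the lowest scores just outside were held by 39 and 46 windows.

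The 10 leading moderate windows, ranked by the worse of their ranks in the 2 lists, are described next. This choice uses the scores, so they lie near the upper limits of both bands and do not stand for the whole set. They are given by their replicate 1 position, on the build that the file names call Araly1. All gene neighbours named for them below are protein-coding, and the gene table used here gives these genes no name beyond the LOC number and no strand. The first lay on scaffold 5 from 3981655 to 3982209, scored 4.3 in replicate 1 and 2.72 in replicate 2, and had its summit 230 bp outside LOC9311464. Its 2 summits were 1 bp apart. The next, on scaffold 8 from 2049045 to 2050919, scored 4.35 and 2.72, with a summit that fell inside LOC9299565. A scaffold 1 window from 17519006 to 17519558, with scores of 4.24 and 2.72, had its summit inside LOC9327259 and 445 bp from LOC9327260. These 3 had 1 replicate 2 partner each.

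The other 7 windows of this set had summits outside genes. All of them scored 2.66 in replicate 2. A summit between LOC9328926 at 1286 bp and LOC9326162 at 851 bp belonged to the scaffold 1 window at 6488991 to 6491388, which had a replicate 1 score of 4.21. The other scaffold 1 window (26936169 to 26939046) reached 4.3 and was 7231 bp from LOC9327683. Of 2 windows on scaffold 2, one (4699976 to 4701281) reached 4.24 at 6307 bp from LOC9324318, and one (12721948 to 12723192) reached 4.3 at 1003 bp from LOC9324685. Near and distant positions were thus both present among these leading windows. Scaffold 3 also held 2, with a score of 4.3 at 792 bp from LOC9318796 (4569620 to 4571133) and of 4.17 at 6523 bp from LOC9319657 (12724784 to 12726093). The last was the scaffold 7 window at 5427408 to 5430710, with a score of 4.24 at 6452 bp from LOC9305522. It was 3303 bp wide and met 5 replicate 2 windows. Only the scaffold 7 window and the scaffold 2 window at 1003 bp from its gene had a window strong in both libraries within 3000 bp, at 2323 and 2440 bp.

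Other sets of windows from the same lists serve for comparison below. Windows strong in both libraries scored above 4.35 in replicate 1 with a best replicate 2 partner above 2.73, and numbered 1227. Windows weak in both scored under 2.5 with a best partner under 1.6, and numbered 22030. All sets come from the same pair of libraries and windows are not replicates, so no p-value was computed between them. The 95% Wilson intervals given with shares cover counting error over windows only.

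The first question is how well the libraries placed the summit, the position of highest signal, of a moderate site. The median distance between the replicate 1 and replicate 2 summits was 84 bp for moderate windows (quartiles 35 and 194 bp), against 33 bp for windows strong in both (13 and 68.5 bp) and 101 bp for windows weak in both (43 and 203 bp). Summits lay within 50 bp of each other in 1495 moderate windows, or 34.6% (33.2 to 36.1%), against 65.1% (62.4 to 67.7%) of strong and 28.7% (28.1 to 29.3%) of weak ones. Over all 37655 replicate 1 windows with a partner the share was 30.4%. Moderate windows therefore stood between the other sets on this measure, nearer to the weak ones. The signed distance, replicate 2 minus replicate 1, had a median of -6 bp in moderate windows, with quartiles of -90 and 78 bp, so neither library's summits lay mainly to one side.

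Far-apart summits were more frequent in moderate windows than in windows strong or weak in both, but not than in windows moderate in 1 library only. Distances above 500 bp occurred in 522 moderate windows, or 12.1% (11.2 to 13.1%), against 2.44% (1.72 to 3.47%) of strong, 5.58% (5.29 to 5.89%) of weak and 8.15% of all paired windows. Where replicate 1 was moderate and the partner weak the share was 13.6% (12.6 to 14.6%). Where the partner was moderate it was 11.7% (10.7 to 12.7%) for weak and 11.6% (9.39 to 14.2%) for strong replicate 1 windows. The exception was a moderate replicate 1 window with a strong partner, at 5.75% (4.16 to 7.89%). The largest distance was 4389 bp, on scaffold 7, where the replicate 1 window from 10943537 to 10948016 met 4 replicate 2 windows. These values moved with width: Spearman's rho between width and summit distance was 0.351 over the moderate windows. The median replicate 1 width was 1080 bp for moderate windows, against 426 bp for weak ones.

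**Figure D1:**
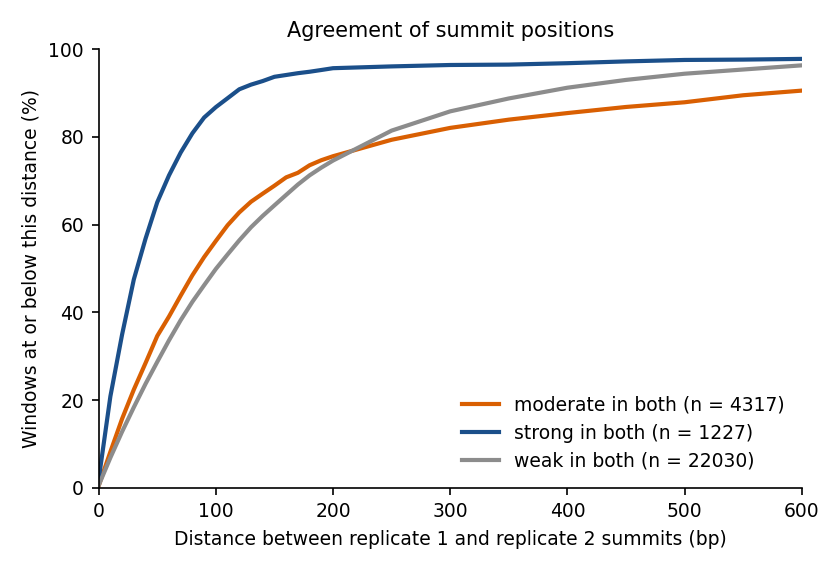
Cumulative share of windows (vertical axis, %) by the distance between the replicate 1 and replicate 2 summits (horizontal axis, bp), with 1 line each for moderate, strong and weak pairs. At 50 bp the moderate line stands at 34.6%, the strong line at 65.1% and the weak line at 28.7%, and from 250 bp on the moderate line runs below the weak one.

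To narrow the differences in replicate 1 width, the comparison was repeated among windows 703 to 1615 bp wide in replicate 1, the quartiles of the moderate windows. In this range summits were within 50 bp of each other in 33.0% of 2164 moderate windows (31.0 to 35.0%), against 64.6% of 608 strong (60.8 to 68.3%) and 15.7% of 4893 weak windows (14.7 to 16.8%). The median distances were 88 bp for moderate, 34 bp for strong and 201 bp for weak windows. Among windows of the same width range with a single replicate 2 partner, the medians were 85, 34 and 177 bp in that order. In this range the intervals of moderate and weak windows did not overlap, though they cover counting error over windows only. Widths still differed within it. The median replicate 1 width was 1080 bp for moderate, 1070.5 bp for strong and 936 bp for weak windows. In replicate 2 it was 544, 705 and 235 bp, so width was not fully set aside. Distances above 500 bp, frequent among moderate windows of all widths, occurred here in 8.73% of moderate (7.62 to 10.0%), 0.822% of strong (0.352 to 1.91%) and 16.8% of weak windows (15.7 to 17.8%), so the order of moderate and weak was turned round.

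Summit agreement also varied with the score inside the moderate band. By replicate 2 score, the members were divided into 4 classes, with ties kept together. Summits were within 50 bp in 28.8% of the lowest class (26.4 to 31.3%, n = 1315) and in 42.0% of the highest (39.0 to 45.1%, n = 1007), and the median distances were 100 and 67 bp. By replicate 1 score the corresponding shares were 30.4% (27.8 to 33.1%, n = 1172) and 38.4% (35.4 to 41.4%, n = 998). The members are thus a graded set and not a uniform one in this respect.

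Windows with a moderate replicate 1 score had partners of all classes. The median summit distance was 84 bp where the partner was moderate, against 46 bp for the 609 windows with a strong partner and 120 bp for the 4659 with a weak one. The share within 50 bp was 34.6% for members, against 52.4% (48.4 to 56.3%) with a strong and 24.6% (23.4 to 25.9%) with a weak partner. Gene position did not grade in this way: the replicate 1 summit was inside a gene in 18.6% of members, against 25.5% (22.2 to 29.1%) with a strong and 18.5% (17.4 to 19.6%) with a weak partner.

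**Figure D2:**
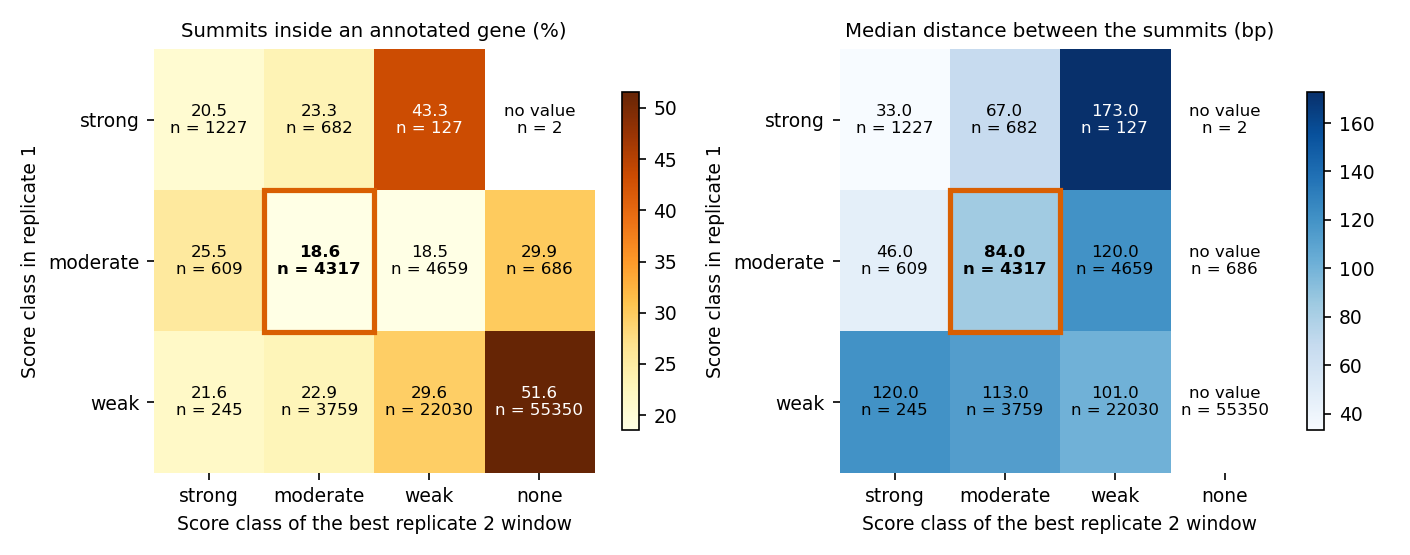
Heat maps of replicate 1 windows by their own score class (rows) and that of their best replicate 2 window (columns), with the share of replicate 1 summits inside an annotated gene (%) on the left and the median distance between summits (bp) on the right; n is the number of windows, and cells with fewer than 10 windows or no partner show no value. The outlined cell holds the moderate windows, with 18.6% inside genes and a median distance of 84 bp.

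Moderate windows were narrower in replicate 2 than in replicate 1. Their median width was 1080 bp in replicate 1 (quartiles 703 and 1615 bp) and 517 bp in replicate 2 (400 and 730 bp). Strong windows had medians of 1095 and 685 bp. The replicate 1 widths of both sets were thus alike, while the replicate 2 windows of moderate sites were narrower. The median ratio of replicate 2 to replicate 1 width was 0.537 for moderate windows, against 0.697 for strong ones, 0.403 for weak ones and 0.463 over all paired windows. The relative narrowing was thus greater than in strong windows and less than in the list at large. In 67.2% of moderate windows (65.8 to 68.6%) the replicate 2 window lay wholly inside the replicate 1 window, against 57.4% (54.6 to 60.1%) of strong, 55.0% (54.3 to 55.6%) of weak and 57.4% (56.9 to 57.9%) of all paired windows. This share was higher where a moderate replicate 1 window had a weak partner (80.6%) or a strong one a moderate partner (77.9%). It was lower for a moderate window with a strong partner (43.7%) and a weak window with a moderate one (32.3%). Within the moderate windows, Spearman's rho between score and width was 0.149 in replicate 1 and 0.217 in replicate 2, and the part of the score in these differences was not tested.

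Some broad moderate windows broke up into several windows in replicate 2. One partner was met by 2597 members (60.2%), 2 partners by 1046 (24.2%) and 3 or more by 674, or 15.6% (14.6 to 16.7%). The share with 3 or more was 13.4% (11.7 to 15.5%) in strong windows, with overlapping intervals. It was 2.61% in weak windows, whose median replicate 1 width was 426 bp against 1080 bp. Strong replicate 1 windows with a moderate partner had 22.0%. Moderate ones with a weak or a strong partner had 12.0 and 10.2%, and weak ones with a moderate partner 4.5%. Among moderate windows the most was 9, on scaffold 1 from 25871300 to 25875021, in the space between LOC9330277 and LOC9327594. The 2 summits lay 2633 bp apart there. The widest member, 5830 bp on scaffold 2 from 11092618 to 11098447, met 7 replicate 2 windows and had summits 2615 bp apart. In members with 3 or more partners the median summit distance was 151 bp, against 70 bp in those with 1 partner. In such windows the label of 1 site covers what the other library listed as several.

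Next comes the position of moderate sites relative to genes. The replicate 1 summit lay inside an annotated gene in 804 moderate windows, or 18.6% (17.5 to 19.8%), against 20.5% (18.3 to 22.8%) of strong windows, 29.6% (29.0 to 30.2%) of weak windows and 41.1% of all replicate 1 windows. Genes cover 41.2% of the scaffolds. A further 1795 moderate summits, or 41.6% (40.1 to 43.1%), lay outside genes within 1000 bp of one, against 40.1% (37.4 to 42.9%) of strong and 37.9% (37.2 to 38.5%) of weak windows. The same share was 31.9% of all replicate 1 windows, and such positions make up 17.7% of the scaffolds. Moderate and strong windows had overlapping intervals on both measures. Since strand is not in the gene table, upstream and downstream flanks were pooled, and genes were given their scaffold by the order of that table.

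Farther out, 1120 moderate summits (25.9%, 24.7 to 27.3%) were over 1000 and up to 3000 bp from a gene, against 23.6% (21.3 to 26.1%) of strong and 19.9% (19.3 to 20.4%) of weak windows, 16.4% of all replicate 1 windows and 14.7% of scaffold length. More than 3000 bp from any gene were 598 moderate summits (13.9%, 12.9 to 14.9%), against 15.8% (13.9 to 18.0%) of strong windows, 10.6% of all replicate 1 windows and 26.4% of scaffold length. That length includes 10 bins of 1 Mb with no gene and no replicate 1 window. More than 10000 bp away were 52 (1.2%, 0.92 to 1.58%), against 2.28% (1.58 to 3.28%) of strong windows, where the intervals just touched. Weak windows stood between, at 1.66% (1.5 to 1.84%). The 55350 weak windows with no partner, most of the list, stood at 1.13% (1.04 to 1.22%). Moderate replicate 1 windows with a weak partner stood at 1.48% (1.17 to 1.87%). The moderate share was thus near that of these sets. The most distant member lay on scaffold 8 from 6169139 to 6170043, with its summit 22914 bp from LOC9299834. It scored 3.72 and 1.68, and had summits 28 bp apart. The next, on scaffold 3 from 17768032 to 17768491, was 22828 bp from LOC110230120 and scored 4.11 and 2.6, with summits 20 bp apart. Both remote windows were placed closely by both libraries.

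**Figure D3:**
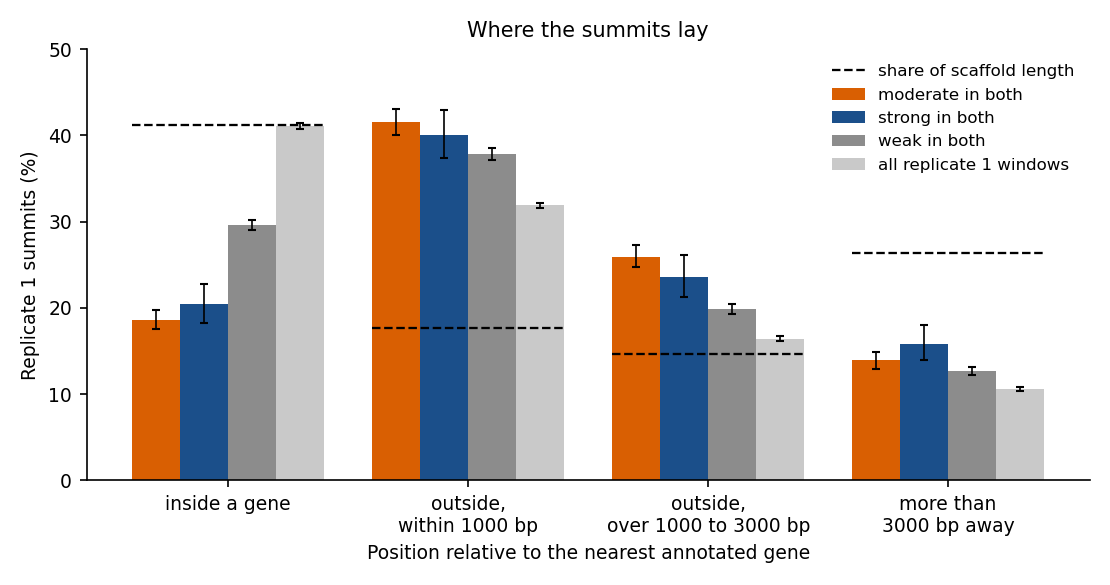
Share of replicate 1 summits (vertical axis, %) inside genes and at 3 distances outside them for moderate, strong and weak windows and for all replicate 1 windows; error bars are 95% Wilson intervals and dashed lines the share of scaffold length. Moderate windows stand at 18.6% inside genes and 41.6% within 1000 bp, against 41.2% and 17.7% of scaffold length.

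Outside genes, the number of moderate summits per step was highest next to the gene end. Steps of 250 bp held 632 summits at 1 to 250 bp (14.6% of all members), 491 at 251 to 500 bp (11.4%), 367 at 501 to 750 bp (8.5%) and 305 at 751 to 1000 bp (7.07%). The same steps make up 6.15, 4.61, 3.79 and 3.19% of the scaffolds. The share of summits was thus above 2 times the share of length in each of these steps. Strong windows held 14.9, 9.86, 8.48 and 6.85% in these steps, and weak windows 16.4, 9.96, 6.51 and 5.01%. The fall with distance was thus not particular to moderate windows. The median distance of the 3513 moderate summits outside genes was 961 bp, against 992.5 bp for strong and 863 bp for weak ones.

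Of the 804 moderate summits inside genes, 373 (46.4%, 43.0 to 49.8%) were within 500 bp of a gene end, against 42.2% (36.3 to 48.4%) of strong and 46.2% (45.0 to 47.4%) of weak ones. Their genes measured 2969.5 bp at the median, against 3083 bp for strong and 2866 bp for weak windows. With the replicate 2 summit in place of the replicate 1 summit, 19.2% of moderate windows (18.1 to 20.4%) lay inside genes. For 4109 of the 4317 members (95.2%), both summits were inside genes or both were outside. The call thus seldom hung on which library placed the summit. Pairing by overlap limits how far apart the summits can be, so the rule itself favours such agreement. No such share is given here for other sets.

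The gene position of moderate windows moved with their width. The members were divided into 4 classes by replicate 1 width. Summits were inside genes in 28.3% of the narrowest class, 149 to 703 bp wide (25.7 to 31.1%, n = 1080). The share was 18.6% at 704 to 1080 bp (16.4 to 21.1%, n = 1079) and 14.4% at 1081 to 1615 bp (12.5 to 16.7%, n = 1080). In the widest class, 1617 to 5830 bp, it was 13.1% (11.2 to 15.2%, n = 1078). The interval of the narrowest class overlapped none of the others. Over the same classes, from narrow to wide, the median summit distance was 50, 79, 100 and 149 bp. In the widest class 50.8% of members met 3 or more replicate 2 windows, against 0.0926% in the narrowest. Narrow moderate windows were thus more often inside genes and more closely placed by both libraries. The score classes were closer together in gene position: by replicate 1 score the share ranged only from 18.4 to 19.0% over 4 classes, and by replicate 2 score from 16.5% (14.6 to 18.6%) to 21.1% (18.6 to 23.7%).

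The difference from weak windows also moved with width. Among windows 703 to 1615 bp wide, 16.5% of moderate summits (15.0 to 18.1%) were inside genes, against 19.9% (16.9 to 23.3%) of strong and 19.4% (18.3 to 20.5%) of weak windows. Moderate and weak windows were thus much closer here than over all widths, where their shares were 18.6 and 29.6%. All 13712 replicate 1 windows of that width had 19.1% inside genes, and 45.2% outside within 1000 bp, against 45.7% (43.7 to 47.9%) of the moderate ones. Weak windows of that width with no replicate 2 partner stood higher, at 27.6% (25.5 to 29.8%, n = 1619). In this range of replicate 1 width, position relative to genes therefore differed between moderate and weak pairs much less than summit agreement did.

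**Figure D4:**
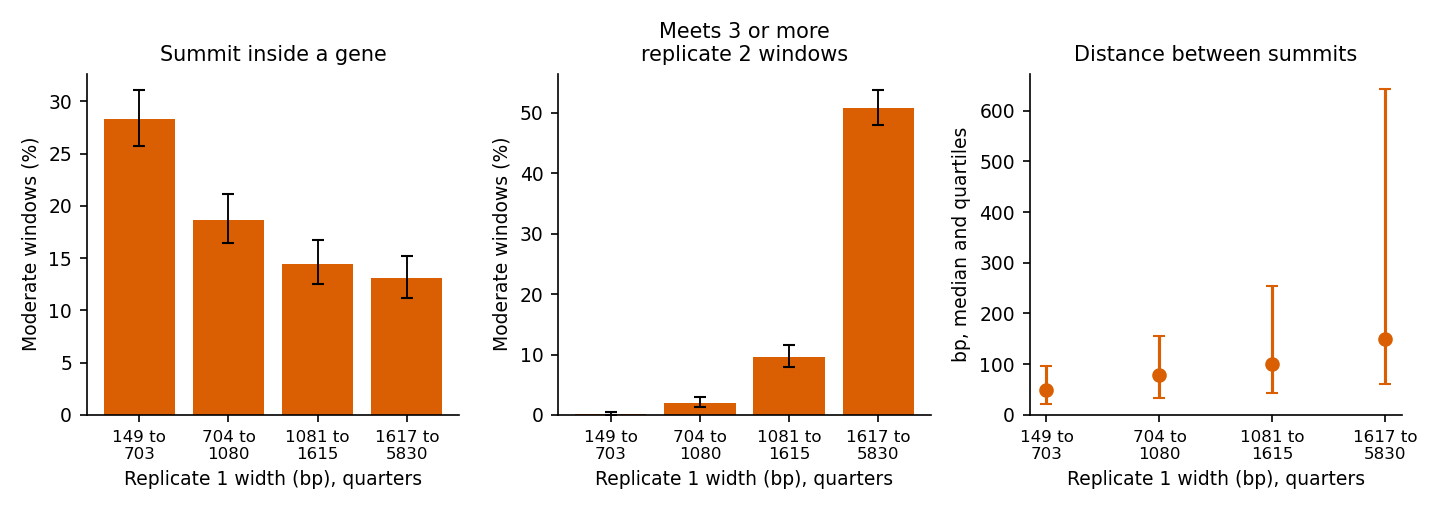
Moderate windows in 4 classes of replicate 1 width (horizontal axes, bp), showing the share with a summit inside a gene (left, %), the share that met 3 or more replicate 2 windows (centre, %) and the distance between summits (right, bp). Bars carry 95% Wilson intervals, points are medians with quartiles, and the share inside genes is 28.3% in the narrowest class and 13.1% in the widest.

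The nearest gene was protein-coding for 3900 moderate windows (90.3%, 89.4 to 91.2%), against 92.0% (90.4 to 93.4%) of strong windows, 88.6% (88.2 to 89.0%) of weak windows and 89.7% of all replicate 1 windows. Long non-coding RNA genes were nearest for 261 (6.05%, 5.37 to 6.8%), pseudogenes for 135 (3.13%) and transfer RNA genes for 21 (0.486%, 0.318 to 0.743%). In that order the shares were 4.97, 2.53 and 0.489% of strong windows and 7.18, 3.63 and 0.599% of weak windows. The protein-coding share was near that of the whole list. Of 29018 protein-coding genes on the 9 scaffolds, 5439 (18.7%) had a moderate summit inside them or within 3000 bp. Of these genes 4820 had 1 such summit, 572 had 2, 45 had 3 and 2 had 4.

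In all, 3 genes of any class had 4 moderate summits inside them or within 3000 bp. They were singled out after the counts were seen. LOC9309722, a protein-coding gene of 3927 bp on scaffold 6, had members from 5724101 to 5724756, 5728026 to 5728855, 5729182 to 5729646 and 5730530 to 5731177. Their replicate 1 scores were 3.15, 3.87, 2.76 and 2.96 and their replicate 2 scores 1.99, 1.99, 2.23 and 1.81. Only the second summit was inside the gene, and the others flanked it on both sides at 211, 917 and 2435 bp. LOC110228313, a long non-coding RNA gene of 8791 bp on scaffold 5, had 2 summits inside, in members from 20531895 to 20534432 and from 20535266 to 20535619, and 2 outside at 1554 and 261 bp, both on the side of lower coordinates. Its replicate 1 scores ran from 2.83 to 3.6. LOC9304071, a protein-coding gene of 730 bp on scaffold 7, had all 4 summits outside, at 2351 bp on one side and 121, 1389 and 2493 bp on the other.

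Moderate windows were also counted per space between neighbouring genes. Of 30385 spaces, 3063 (10.1%) held at least 1 moderate summit and 390 held 2 or more. Longer spaces, up to 30000 bp, held one more often: 1.83% of spaces up to 1000 bp, 9.86% of those above that and up to 3000 bp, 21.1% of those up to 10000 bp and 31.3% of those up to 30000 bp. Above 30000 bp it was 28.3%. Per length, spaces above 3000 bp held fewer: the density was 53.7 moderate summits per Mb in the shortest class, 55.8 in the next, then 44.0 and 26.7, and 3.27 in spaces above 30000 bp. Strong windows had densities of 17.3, 14.2, 11.6, 7.96 and 1.23 per Mb. The number of moderate per strong window stayed between 2.65 and 3.93 across these classes. The longest spaces take in stretches where no window was listed: 10 bins of 1 Mb held no gene and no replicate 1 window. This lowers the density above 30000 bp for any set, and the density of all replicate 1 windows was not computed.

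Spaces with 5 moderate summits were the fullest, and there were 2 of them, neither with a strong window. They are named because of their counts. One, 15386 bp long on scaffold 6 between LOC9308948 and LOC9311033, held members from 24175616 to 24177495, 24177772 to 24180120, 24180472 to 24183329, 24185449 to 24185973 and 24186799 to 24189168. Their replicate 1 scores were 2.7, 4.19, 4.04, 2.89 and 3.85 and their replicate 2 scores 1.81, 2.05, 2.6, 1.62 and 2.17. The other, 16348 bp long on scaffold 5 between LOC9312849 and LOC9312850, held members starting at 476446, 479212, 482276, 485471 and 489652, with replicate 1 scores of 3.47, 3.4, 4.32, 3.16 and 3.66 and replicate 2 scores of 1.68, 1.75, 2.05, 2.17 and 2.05. In both spaces members spread over most of the length rather than lining one gene.

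A further question is whether moderate windows are companions of strong ones. The summit of a window strong in both libraries lay within 10000 bp of 655 moderate summits, or 15.2% (14.1 to 16.3%), against 13.8% (13.3 to 14.2%) of weak summits and 13.6% of all replicate 1 summits. Within 3000 bp the shares were 3.85% (3.31 to 4.46%) of moderate and 3.84% (3.6 to 4.11%) of weak summits. The median distance to the nearest strong window was 45086 bp for moderate, 48342.5 bp for weak and 43828 bp between strong windows themselves. Most moderate windows thus had no strong window within 10000 bp, and their distances to strong windows were like those of the rest of the list.

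Genes with moderate and with strong summits were then compared. Of the 1636 protein-coding genes with a strong summit inside or within 3000 bp, 298 (18.2%) also had a moderate one, against 5141 (18.8%) of the genes with no strong summit. A strong summit was near 5.48% of the 5439 genes with a moderate one, against 5.64% of all protein-coding genes. These shares were near each other in both directions.

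The 5 moderate windows closest to a strong one had summits 627 to 864 bp from it. They lay on scaffold 3 from 10756754 to 10758331 (627 bp), on scaffold 6 from 11120207 to 11120600 (653 bp), on scaffold 5 from 2575534 to 2576302 (825 bp) and from 18296614 to 18297576 (863 bp), and on scaffold 1 from 14436002 to 14437206 (864 bp). Both scaffold 5 windows had summits inside genes, LOC9311359 and LOC9312472, and the other 3 lay outside genes. Their replicate 1 scores ran from 2.83 to 3.98. Windows within a list do not overlap, so the width of the windows limits how close 2 summits can come.

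Moderate windows lay closer to each other than to strong ones, which were fewer. The nearest other member was a median of 11391 bp away, within 10000 bp for 2008 members (46.5%, 45.0 to 48.0%) and within 3000 bp for 727 (16.8%, 15.8 to 18.0%). No such share is given here for all replicate 1 windows, so these values do not show whether moderate windows cluster. The closest pair, with summits 449 bp apart on scaffold 4 from 4661182 to 4661716 and from 4661827 to 4662210, was inside LOC9316762, a protein-coding gene. Both members of that pair had the same replicate 2 window as partner, so replicate 2 listed them as 1 site.

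Over the genome, moderate windows were spread over all 9 scaffolds. Their density was between 19.6 per Mb on scaffold 3 and 24.4 per Mb on scaffold 7, and on the small scaffold 9, with 39 members, it was 20.7. The share inside genes ran from 16.9% on scaffold 2 to 22.2% on scaffold 4, and the median summit distance from 74 bp on scaffold 4 to 105 bp on scaffold 9. No scaffold stood far apart in density per Mb or in score: the median replicate 1 score lay between 3.02 and 3.21 on each. Per 100 genes, scaffold 9 stood higher, with 18.3 members, against 10.9 on scaffold 3 to 14.6 on scaffold 2.

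Bins of 1 Mb spread more widely than scaffolds. Only whole bins were used, so the end of each scaffold beyond its last whole bin was left out. On scaffold 9, 1.88 Mb long, the only bin held 23 of the 39 members. Of 192 bins, 10 held no member, and these 10 also held no gene and no replicate 1 window at all. Bins with 1 to 50 genes had a median of 3 members (range 1 to 12, 11 bins), those with up to 100 genes 10.5 (6 to 22, 16 bins), those with up to 150 genes 21.5 (8 to 34, 32 bins) and those with up to 200 genes 26 (10 to 39, 43 bins). Bins with over 200 genes also had a median of 26 (12 to 46, 80 bins). The number of members thus went up with gene number to about 150 genes per Mb and was level above that. All replicate 1 windows also went up: 18 to 177 per bin with 1 to 50 genes, against 462 to 714 with over 200 genes. The rise is therefore not shown to be particular to moderate windows. Spearman's rho between members and genes was 0.565 over the 182 bins with a gene, and 0.597 between members and strong windows, as a description over bins that share libraries, assembly and annotation.

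**Figure D5:**
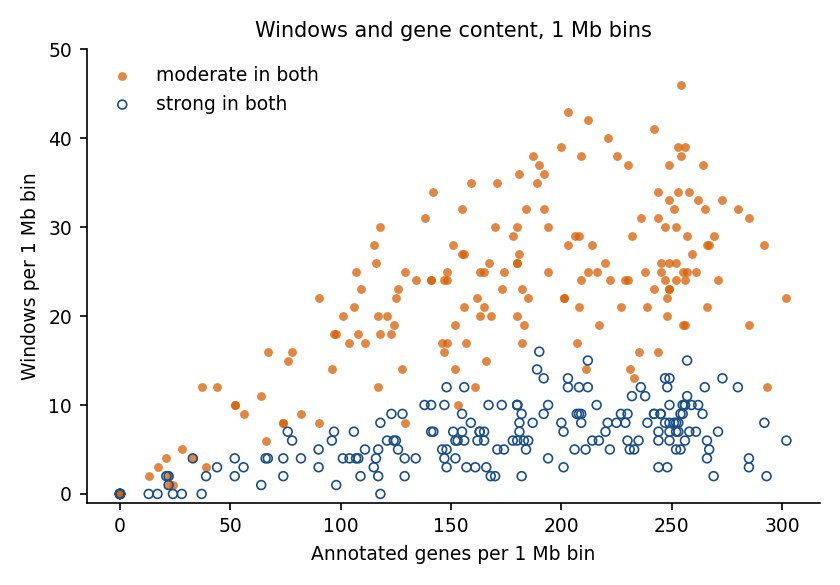
Number of windows per 1 Mb bin (vertical axis) against annotated genes in the bin (horizontal axis) for moderate windows (filled) and strong windows (open), 192 bins each. Bins with over 200 genes hold 12 to 46 moderate windows, and the 10 bins without a gene hold none.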

How the data were processed

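SEP3 ChIP windows of 2 A. lyrata libraries were analysed. Per the file headers each list gives scaffold, start, end, summit, width and the authors' deposited score. The file names carry the build Araly1. CASAVA is named in the submitters' processing notes, without a version. No source used here names the aligner, the peak caller, the control or the score formula. Windows were called per library.

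Pairs were formed by overlap (at least 1 bp, highest score; ties by start) in Python 3.11.15 with pandas 2.3.3 and numpy 2.4.6. Intervals are 95% Wilson (scipy 1.17.1). Overlap, gene position and distance routines were tested on simulated windows.

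Genes came from a RefSeq table of A. lyrata assembly v.1.0 without strand. Its first 9 blocks of rising start, 33239 of 34221 genes, were taken as scaffolds 1 to 9. As a check on scaffolds 1 to 8, 16.9 to 22.2% of moderate summits fell inside genes of their own block, against 30.9 to 53.5% in other blocks. The match of builds is assumed, so gene coordinates are not printed.

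The members and measures were chosen with earlier results of these data known. Named windows were the 10 of smallest worse rank, 3 on each side of each lower limit and the 5 closest to a strong window; others are stated as singled out by their values, such as extremes. The planned CArG box share and the 5 planned gene lists were not run, since no sequence or gene names were at hand. The A. thaliana list was not used here.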

Additional observations from a re-analysis of the deposited data

How the results depend on the processing

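Of 41 alternative values for 7 results, 17 stayed within the 95% interval of the value given, or within 1.5 times the number of windows. The number of moderate windows was 2226 with a reciprocal overlap of at least 50% and 1147 with lower limits of 3 and 2. With 1 library alone it was 9123 to 10271. The median summit distance was 72 bp with reciprocal overlap and 69 bp with the higher limits. Inside genes lay 21.0% with reciprocal overlap, 17.4% with protein-coding genes only and 19.7 to 21.4% in 1 library alone. The share outside genes within 1000 bp was 39.2% with protein-coding genes only, 38.9 to 43.7% in 1 library alone, and 67.5% within 3000 bp. The share near a strong window was 10.1% with reciprocal overlap, where the strong windows also had to meet that overlap, so both sets changed. It was 3.85% within 3000 bp, and 23.9 to 24.7% in 1 library alone, where strong windows were also taken from that library only. The median width was 763.5 bp in replicate 1 and 575 bp in replicate 2 with reciprocal overlap, 1122 and 586 bp with the higher limits, 936 bp in replicate 1 alone and 466 bp in replicate 2 alone, and 527 bp in replicate 2 with the partner of longest overlap. Reciprocal overlap leaves out broad windows that meet narrow ones by construction; the cause of the other shifts was not tested. Leaving out the 40 members that share a partner, an alternative chosen after seeing the data, moved none of the 7. Without 1 library no summit distance exists. No paired analysis was possible because only 1 group, the ChIP libraries, is analysed here. The 7 alternatives for the CArG box were not run. Read depth is unknown, so it cannot be said which windows of a deeper library would enter the band.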
